A study of Mus musculus with 38 samples.

Results

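The 41 genes described here serve amino acid supply in mouse CD4 T helper cells. They are 17 cytosolic aminoacyl-tRNA synthetase genes, 10 genes of amino acid synthesis, 5 genes of the ATF4 stress response and 9 amino acid transporter genes. They were chosen by name, and all 41 were found among the 23700 entries of each deposited gene table. RNA was measured in 14 libraries of 13 groups, of which 1, wild-type (WT) Th1, held 2 libraries and the other 12 held 1 each. All cells were C57BL/6J naive CD4 T cells, sorted by flow cytometry from spleen and lymph nodes and polarized in culture toward Th1, the interferon-gamma-producing helper lineage, or Th2, the IL-4-producing one.

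The no-vector Th1 groups were WT, STAT4<tm1> knockout (STAT4 KO) and Tbet<tm1> knockout (T-bet KO), and the no-vector Th2 groups were WT and Stat6<tm1> knockout (STAT6 KO). These were cultured for 7 days and restimulated for 2 hours on plate-bound antibodies to CD3 and CD28 with IL-12 (Th1) or IL-4 (Th2). The vector groups carried the retroviral vector pMY-IRES-hNGFR, which marks cells with human NGFR. It was empty (control vector), or held T-bet cDNA in WT and STAT4 KO Th1 cells, or held GATA3 cDNA in WT and STAT6 KO Th2 cells. One label of the vector groups gives 5 days of culture, another gives 7 days for their Th1 cells, and restimulation is stated for the Th1 vector cultures but not for the Th2 ones. Vector, day and restimulation therefore cannot be told apart in any comparison of vector with no-vector cultures. Among vector cultures, lineage and a possible difference in restimulation cannot be told apart, which also bears on fits of Th2 against Th1 that include them. In bulk RNA, more cells of a kind and more RNA per cell cannot be told apart either.

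A T cell that begins to divide needs amino acids for protein and nucleotides. Transporters bring them in, synthetases load them onto tRNAs for translation, and a serine route, from a glycolytic intermediate through PHGDH, PSAT1, PSPH and the SHMT enzymes, yields glycine and one-carbon units. When amino acids run short or the endoplasmic reticulum is stressed, phosphorylation of eIF2 favours translation of the transcription factor ATF4. ATF4 with C/EBP partners binds short elements near many of the genes described here, including asparagine synthetase and several synthetases and transporters.

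The core of that element, TGATGNAA, was searched on both strands of the 250 bases before the annotated start, in promoters from RefSeq (GRCm38.p6). Promoters were matched for 30 of the 41 genes. The core was found in 7 of these 30 (23.3%), against 201 of 7830 genes past the expression filter (2.57%) and 1056 of 27025 genes in the table (3.91%). The windows are shown because they hold the element through which many of these genes are known to respond to amino acid shortage. Each is printed 5′ to 3′ along the gene's strand, with the core in capitals. In Slc7a11, which holds a second core, only the first is in capitals. A core on the opposite strand appears as its reverse complement.
Asns: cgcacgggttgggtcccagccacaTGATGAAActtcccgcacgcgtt
Chac1: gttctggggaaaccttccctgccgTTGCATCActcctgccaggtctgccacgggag
Pycr1: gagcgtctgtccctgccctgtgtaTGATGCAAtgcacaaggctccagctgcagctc
Aars: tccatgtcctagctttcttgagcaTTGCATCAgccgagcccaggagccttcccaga
Tars: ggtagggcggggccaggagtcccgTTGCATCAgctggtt
Gars: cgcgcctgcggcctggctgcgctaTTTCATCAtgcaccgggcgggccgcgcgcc
Slc7a11: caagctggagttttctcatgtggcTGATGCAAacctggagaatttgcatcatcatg
In Asns the core starts 23 bases before the annotated start (chr6:7693210-7693256, minus strand). In Chac1 it starts 193 bases before (chr2:119351025-119351080, plus strand), in Pycr1 103 (chr11:120643820-120643875, minus), in Aars 112 (chr8:111033706-111033761, plus), in Tars 15 (chr15:11399659-11399697, minus) and in Gars 30 (chr6:55037947-55038000, plus). The Slc7a11 window starts its first core 66 bases before the start (chr3:50443648-50443703, minus) and holds a second core, on the other strand, 47 bases before. A match describes letters and is not a measured binding site. As a contrast, the E-box CACGTG, a palindrome that reads alike on both strands and that does not overlap the core, was found in 3 of 30 members (10%; Aars, Iars and Aldh18a1) and in 10.3% of the genes past the filter.

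Facts of the libraries that bear on these genes come first. WT Th1 replicate 2 and T-bet KO stood apart: small RNA genes took 20.7% and 22.2% of their summed FPKM, against 4.43% to 7.65% in the other 12, and 49 and 55 of their genes had a failed Cufflinks estimate, against 4 to 10. FPKM is fragments scaled to transcript length and library size. These 2 libraries correlated with each other at r = 0.976 across genes and with the other 12 at 0.676 to 0.801. The tests below therefore use the other 12 libraries, except for T-bet KO. The CD4 T cell markers summed to 1259 to 1470 FPKM in the 4 no-vector libraries of the 12 and to 663 to 930 FPKM in the 8 vector cultures, with no overlap. Defining markers of other cells were low in all 14: B cell markers summed to at most 1.46 FPKM, myeloid to 8.76, fibroblast to 0.92 and CD8 T cell to 5.65. NK cell markers summed to 17.1 in T-bet KO, all of it Eomes, and Ncr1, Klrb1c and Klra8 were not detected there. Elsewhere they summed to at most 6.42, in WT Th1 with the T-bet vector, where Eomes read 6.35. Stat4 read 6.71 to 17.5 FPKM in the 3 STAT4 KO libraries and 37.1 to 60.8 in their WT partners, but only 15.1 in replicate 2 of WT Th1 (T-bet KO read 7.52), and these enter only fits over 14 libraries. Tbx21, which encodes T-bet, read 4.18 in T-bet KO against 88.4 and 153 in WT Th1. Stat6 read 34.6 in STAT6 KO Th2 and 35.6 in WT Th2 without vector. It read 36.1 and 65.9 with control vector, and 23.3 and 48.0 with GATA3 vector. A value over the whole gene does not test the disrupted part. Il4, a STAT6 target, read 20.5 in STAT6 KO Th2 and 513 in WT Th2 without vector. Gata3 read 589 and 377 with the GATA3 vector and 14.3 to 95.7 elsewhere.

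Across the 14 libraries the highest member by median was Slc1a5, the glutamine and neutral amino acid carrier ASCT2, at 207 FPKM (range 125 to 347). Next were Atf4 at 153 (83.4 to 179) and Slc7a5, the light chain of the large neutral amino acid carrier LAT1, at 108 (37.6 to 332). The synthetases all lay between 23.7 (Cars) and 87.7 FPKM (Nars) by median. The lowest members were Slc7a8, the related light chain LAT2, at 0.0947 FPKM, and Pycr1, a mitochondrial proline enzyme, at 0.531. Slc7a8 varied most, from 0.00907 to 53.4 FPKM, followed by Cth (0.0759 to 11.6), which makes cysteine from cystathionine. Slc38a2, the carrier SNAT2, varied least, from 42.0 to 80.8 FPKM. All 41 passed the filter of 1 FPKM in at least 2 libraries. Slc7a8 passed only through the 2 GATA3 vector libraries and Pycr1 only through WT Th2 and WT Th2 with the GATA3 vector.

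**Figure D1:**
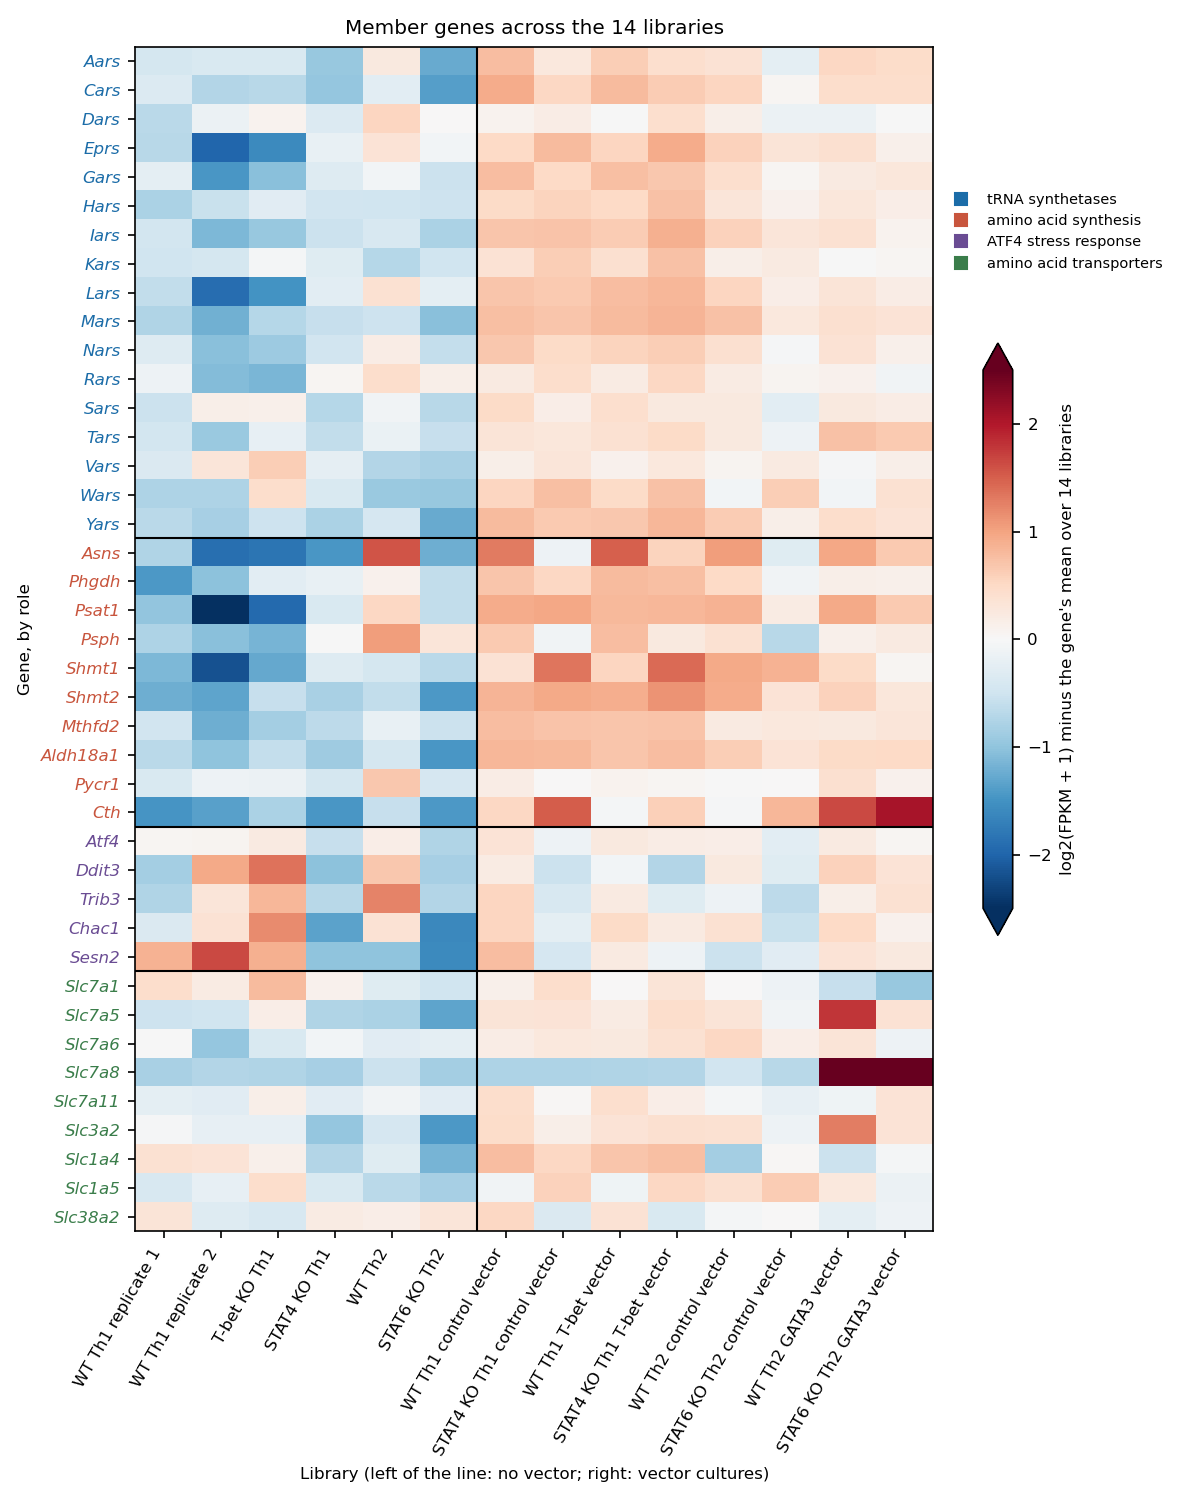
Each column is a library and each row a member, grouped and coloured by role; colour gives log2(FPKM + 1) minus the gene's mean over the 14 libraries, and the scale stops at 2.5 on either side. The 8 vector cultures to the right of the line are mostly above the mean, while Slc7a8 stands out in the 2 GATA3 vector libraries at 53.4 and 24.5 FPKM.

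Vector cultures held more RNA of most of these genes than no-vector cultures. With control vector against no vector, 27 of the 41 members rose and 0 fell (limma, Benjamini-Hochberg adjusted p under 0.05 over 11048 genes). The fit gives the T-bet and GATA3 vectors their own terms. The differences and calls for vector culture are therefore those of control vector against no vector. The background was wide: 36.4% of all genes tested rose and 16.1% fell. The members' median difference on the log2(FPKM + 1) scale was 0.73, against 0.16 for all genes tested. Their share of all FPKM was 0.300% to 0.420% in the 4 no-vector libraries and 0.573% to 0.739% in the 8 vector cultures. In 17 members every vector culture lay above every no-vector culture, and in 0 below, where 24.4% and 6.09% of all genes did so. Since the median of all genes moved by 0.16, the values were also rescaled by the upper quartile: the all-gene median was then 0.01, the members' median 0.54, and 25 members rose while 1, Slc38a2, fell. Of members with a matched promoter, 4 of 7 with the TGATGNAA core rose, and 13 of 23 without it. Their median differences were 0.73 and 0.67, and a link between the core and the difference was not tested.

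Of the 17 synthetases 15 rose and 0 fell, where 36.4% of all genes rose and 16.1% fell. The no-vector values below are given in the order Th1 (WT replicate 1, then STAT4 KO) and Th2 (WT, then STAT6 KO), and the vector values as the range and median of the 8 cultures. That range and median include the T-bet and GATA3 vector cultures, while each difference is control vector minus no vector. Yars, which charges tyrosine, read 14.9, 13.7, 17.8 and 9.50 FPKM without vector and 27.1 to 44.0 (median 38.4) with it, a difference of 1.34 ± 0.13 (SE; adjusted p = 0.00018, limma). Mars, for methionine, read 12.1, 13.9, 14.6 and 9.72 FPKM against 25.5 to 39.0 (median 35.2), a difference of 1.33 ± 0.11 (adjusted p = 9.6e-05, limma). Its locus overlaps Ddit3 by 68 bases, and no source used here gives the strand of the libraries, so reads there cannot be assigned to 1 gene. The same limit holds for Aars (532 bases with Exosc6), Shmt2 (32 with Ndufa4l2) and Yars (30 with C77080). Cars, for cysteine, read 15.3, 9.62, 16.3 and 6.99 against 20.5 to 38.6 (median 29.0). Wars, for tryptophan, read 15.5, 20.6, 13.7 and 13.6 against 25.8 to 46.7 (median 38.9). For these 4 genes no vector culture overlapped a no-vector culture, and the differences of Cars and Wars were 1.25 and 1.22.

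Among the other synthetases, Iars, for isoleucine, read 24.2, 22.8, 25.3 and 19.0 FPKM without vector and 36.1 to 63.2 (median 51.7) with it. Hars, for histidine, read 20.7, 26.0, 25.6 and 25.2 against 39.8 to 61.6 (median 48.4). Kars, for lysine, read 59.0, 67.4, 50.3 and 58.6 against 83.0 to 139 (median 102). These 3 groups of values did not overlap, and the differences were 1.12 (Iars), 0.94 (Hars) and 0.83 (Kars). Gars, for glycine, read 53.8, 51.0, 61.4 and 43.6 against 66.4 to 110.4 (median 88.9). Tars, for threonine, read 46.0, 41.1, 56.5 and 42.3 against 57.9 to 107 (median 81.4). Vars, for valine, read 40.8, 45.5, 31.4 and 29.8 against 51.6 to 65.3 (median 58.5). These groups did not overlap either, with differences of 0.73, 0.63 and 0.72.

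In the remaining 5 synthetases that rose, the WT Th2 library was the highest of the no-vector values and overlapped the vector cultures. Aars, for alanine, read 19.6, 13.5, 32.2 and 10.8 FPKM against 22.5 to 47.1 (median 37.0), a difference of 0.89. Eprs, which charges both glutamate and proline, read 28.6, 41.6, 60.1 and 45.1 against 51.9 to 91.1 (median 68.2). Lars, for leucine, read 13.1, 16.9, 27.1 and 17.2 against 23.1 to 37.4 (median 31.5). The 3 differ in size but share the high WT Th2 value, and the differences of Eprs and Lars were 0.70 and 0.69. Nars, for asparagine, read 62.4, 56.1, 89.8 and 51.7 against 77.0 to 126 (median 107). Sars, for serine, read 21.3, 18.7, 29.3 and 18.9 against 25.9 to 44.1 (median 37.1). Their differences were 0.68 and 0.67. Aars lost its call without STAT4 KO Th1 (adjusted p = 0.0536, limma) or without STAT6 KO Th2 (0.0511), and Lars without STAT4 KO Th1 control vector (0.0529). With all 14 libraries Eprs (0.0582) and Lars (0.068) were not called. The 2 synthetases not called were Dars, for aspartate (0.19 ± 0.20; adjusted p = 0.462, limma), and Rars, for arginine (0.11 ± 0.12; 0.487).

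**Figure D2:**
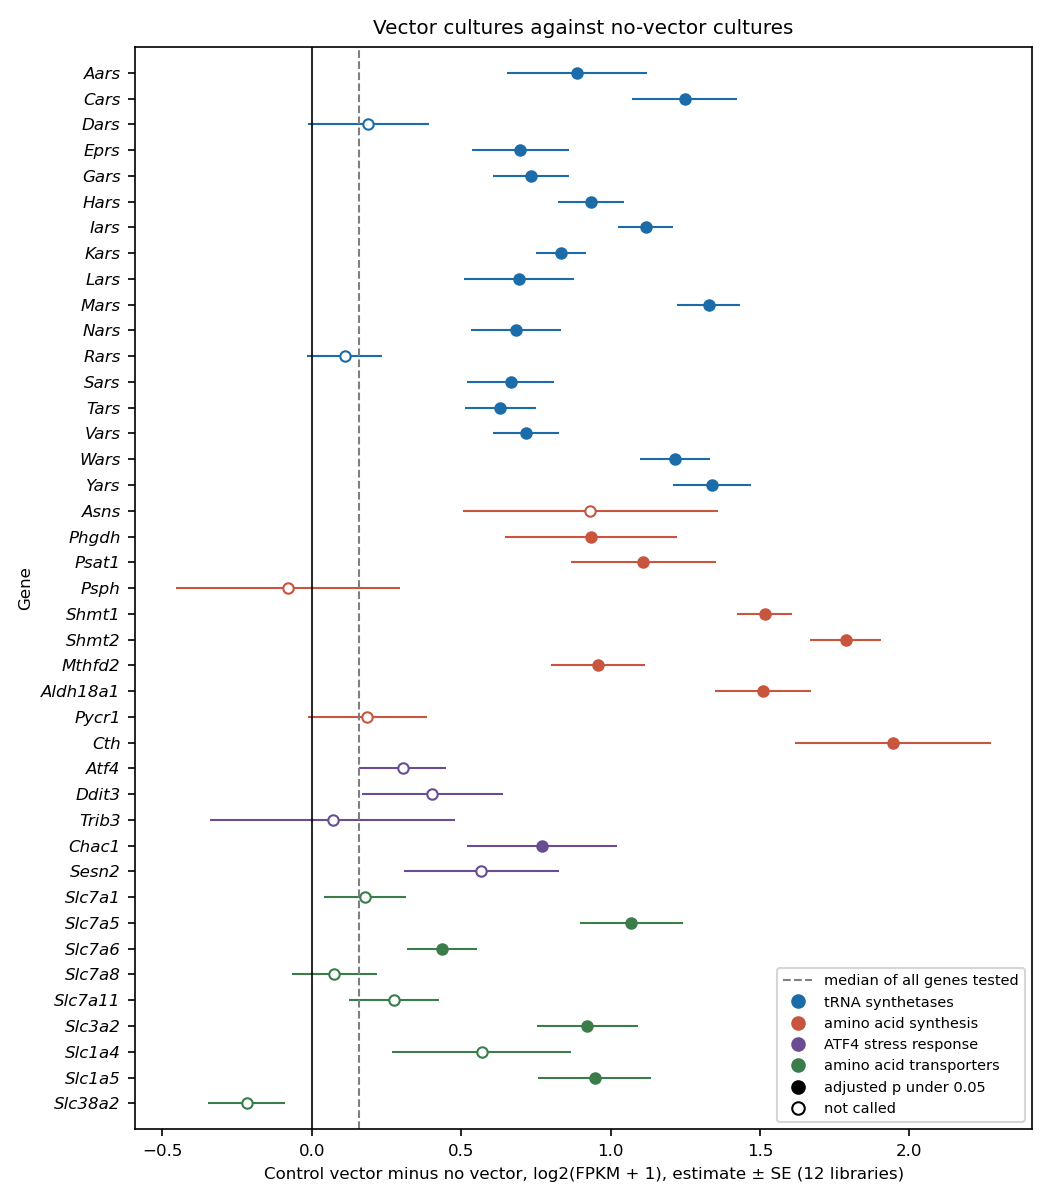
Points give the difference between control vector and no-vector cultures for each member, on the log2(FPKM + 1) scale, with bars of 1 SE from the fit over 12 libraries; filled points are called at an adjusted p under 0.05, and the dashed line is the median of all genes tested (0.16). Synthetases and synthesis enzymes sit mostly to the right of it, and Slc38a2 has the lowest estimate (-0.22).

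Of the 10 synthesis genes, 7 rose with vector culture, where 36.4% of all genes did, and the largest estimates of all members were among them. Cth read 0.0759, 0.0921, 1.01 and 0.109 FPKM without vector and 1.90 to 11.6 (median 3.92) with it, a difference of 1.95 ± 0.33 (adjusted p = 0.00188, limma). Its no-vector values are near 0, so the size depends on the pseudocount: the estimate was 0.77 with a pseudocount of 5 in place of 1. Shmt2, the mitochondrial enzyme that splits serine into glycine and a one-carbon unit, read 22.7, 30.6, 35.1 and 19.3 against 66.2 to 119 (median 101), a difference of 1.79 ± 0.12 (adjusted p = 6.78e-05, limma). Shmt1, its cytosolic counterpart, read 18.7, 33.3, 30.7 and 25.9 against 43.6 to 114 (median 69.2), a difference of 1.52 ± 0.09 (adjusted p = 6.54e-05, limma). All vector cultures were above all no-vector cultures for these 3 genes. Aldh18a1, which starts proline synthesis from glutamate, read 16.2, 13.9, 19.3 and 9.06 against 33.8 to 48.1 (median 42.2), a difference of 1.51. Mthfd2, the mitochondrial folate enzyme downstream of SHMT2, read 39.8, 35.3, 48.8 and 38.2 against 65.8 to 96.3 (median 80.0), a difference of 0.96. Neither overlapped.

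The serine route was less even. Psat1, its second enzyme, read 28.3, 43.7, 82.2 and 36.7 FPKM against 65.7 to 113 (median 104), and rose by 1.11 ± 0.24 (adjusted p = 0.00599, limma). Phgdh, the first enzyme, read 11.0, 27.6, 34.2 and 20.1 against 29.7 to 55.2 (median 44.9), and rose by 0.94 ± 0.29 (adjusted p = 0.026, limma). Phgdh lost its call without STAT6 KO Th2 (adjusted p = 0.0536, limma), WT Th1 control vector (0.0768) or STAT4 KO Th1 control vector (0.064). Psph, the last enzyme, was not called (-0.08 ± 0.38), with 6.86, 12.4, 26.5 and 15.6 FPKM against 7.35 to 21.9 (median 14.8). Asns, which makes asparagine from aspartate and glutamine, was not called over the 12 libraries (0.93 ± 0.43; adjusted p = 0.101, limma). It read 7.56, 4.25, 42.0 and 5.20 against 10.6 to 39.3 (median 24.3), so that WT Th2 alone lay above all vector cultures. Without WT Th2 the Asns difference was 1.49 (adjusted p = 0.00211, limma). Without that library 32 members were called in place of 27, Atf4, Ddit3, Pycr1 and Slc1a4 among those added.

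Of the ATF4 stress genes, 1 of 5 rose, where 36.4% of all genes did. It was Chac1, which degrades glutathione, at 2.22, 0.629, 4.29 and 0.345 FPKM against 1.80 to 4.97 (median 4.11). The difference was 0.77 ± 0.25 (adjusted p = 0.0324, limma). Its call held in 9 of 19 alternatives. It was lost without WT Th1 replicate 1 (adjusted p = 0.0594, limma), STAT4 KO Th1 (0.111), STAT6 KO Th2 (0.109), WT Th1 control vector (0.0958), STAT4 KO Th1 control vector (0.0902) or STAT6 KO Th2 control vector (0.0716). Atf4 itself read 147, 94.9, 158 and 83.4 FPKM against 117 to 179 (median 159; 0.30 ± 0.15), and Ddit3, Trib3 and Sesn2 overlapped widely (0.40, 0.07 and 0.57; none called).

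Of the 9 transporters, 4 rose, where 36.4% of all genes did. Slc7a5 read 66.0, 56.2, 54.9 and 37.6 FPKM without vector and 89.5 to 332 (median 120.3) with it, a difference of 1.07 ± 0.17 (adjusted p = 0.00152, limma). Slc3a2, the heavy chain that carries LAT1 to the membrane, read 77.9, 40.0, 58.8 and 28.6 against 71.8 to 194 (median 102), a difference of 0.92 ± 0.17 (adjusted p = 0.00274, limma). Slc1a5 read 169.6, 169.7, 139.9 and 125 against 202 to 347 (median 282), a difference of 0.95 ± 0.19 (adjusted p = 0.00405, limma). The 2 carriers Slc7a5 and Slc1a5 did not overlap between cultures, while WT Th1 replicate 1 overlapped for Slc3a2. Slc7a6, an exchanger for basic and neutral amino acids, read 23.1, 21.9, 18.9 and 19.3 against 21.1 to 33.7 (median 27.9), a smaller difference of 0.44 ± 0.12 (adjusted p = 0.0154, limma), not called without WT Th2 control vector (0.0598) or STAT6 KO Th2 control vector (0.0522) nor after upper-quartile scaling (0.147). The other 5, Slc7a1, Slc7a8, Slc7a11, Slc1a4 and Slc38a2, were not called. Without WT Th1 replicate 1, Slc7a1 was called higher (0.34; adjusted p = 0.0108, limma), Slc38a2 lower (-0.36; 0.0158) and Sesn2 higher (0.86; 0.01).

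The matched pairs differed in size. The members' median difference between control vector and no vector was 1.02 in WT Th1, 0.95 in STAT4 KO Th1, 0.37 in WT Th2 and 0.72 in STAT6 KO Th2, against 0.26, 0.14, 0.13 and 0.15 for all genes. In all 4 pairs 30 of 41 members were higher and 0 lower, where 40.6% and 18.8% of all genes were.

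Counts in the related lists are to be read against the 36.4% of all genes that rose and the 16.1% that fell. Of 6 other cytosolic synthetase and scaffold genes, 4 rose, among them Farsa (1.10), a subunit of the phenylalanine enzyme, and Aimp2 (1.24), a scaffold of the synthetase complex, and 1, the scaffold Aimp1, fell by 0.43. Of 17 mitochondrial synthetases 13 rose and 1, Fars2, fell by 0.46. Of 9 folate genes tested 4 rose: Mthfd1 (1.69), Mthfd1l (0.98), Slc25a32 (0.91) and Mtr (0.70). Of 14 genes that tie mTORC1 to amino acids, 9 rose, with Mtor at 1.13 and Rragd at 1.12, and Rheb fell by 0.65. Of 8 other transporters 5 rose and 1 fell. Of 18 genes of other amino acid metabolism 6 rose and 1 fell. Of 18 stress kinase, eIF2 and ATF4 partner genes 5 rose and 1 fell, and of 4 Myc family genes 1 rose and 1 fell. These lists were chosen with results of these data known. The vector cultures also differed in their CD4 T cell markers, given above, and the part of these in the members' difference was not tested.

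Th1 and Th2 cells differed at few of these genes. Of 41 members 1 was higher in Th2, Shmt1, and 1 lower, Sesn2, where 1.96% of all genes were higher and 6.43% lower (limma, 12 libraries). The members' median was 0.08, against -0.04 for all genes. Without vector, Shmt1 read 30.7 FPKM in WT Th2 and 18.7 in WT Th1 replicate 1, and with control vector 81.2 and 54.1. The fitted difference was 0.68 ± 0.12 (adjusted p = 0.0158, limma), and over 19 alternatives the adjusted p ranged from 0.014 to 0.111. The call was lost without WT Th2 (0.0519), without WT Th1 control vector (0.0697), with interactions (0.092) and with all 14 libraries (0.111). Within the 2 matched pairs alone, chosen after seeing the data, the adjusted p was 0.39 for Shmt1 and 0.0729 for Sesn2 (limma), and neither was called. Sesn2, a sestrin that senses leucine and restrains mTORC1, read 9.06 in WT Th2 against 36.3 in WT Th1 replicate 1 and 63.0 in replicate 2. With control vector it read 12.9 and 33.8. It was thus lower in Th2 in both cultures, by -1.42 ± 0.34 (adjusted p = 0.0421, limma), but the call held in only 6 of 19 alternatives, with adjusted p from 0.0266 to 0.133. Without WT Th1 replicate 1 the difference was -0.94 (0.108). Of the single libraries, leaving out STAT6 KO Th2, either T-bet vector library or STAT6 KO Th2 control vector kept the call, and leaving out any other lost it.

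The no-vector and control vector pairs went different ways for the synthesis genes. Their median Th2 minus Th1 difference was 0.98 without vector and -0.22 with control vector, against 0.01 and -0.08 for all genes. In the control vector pair restimulation was stated for Th1 only, so lineage and restimulation cannot be told apart there. Asns read 42.0 in WT Th2 and 7.56 in WT Th1 without vector, then 28.7 and 34.2 with control vector. Psph, the phosphatase that releases serine, read 26.5 and 6.86, then 16.4 and 20.1. Trib3, a pseudokinase induced by ATF4, read 19.3 and 4.05, then 6.78 and 11.5. Each was higher in Th2 in 1 culture and lower in the other, and the fit called none of them: the Asns estimate was 0.77 ± 0.55 (adjusted p = 0.415, limma). A test of whether the Th2 difference depended on vector culture called none of the 3 either. Its adjusted p was 0.36 for Asns, 0.291 for Psph and 0.359 for Trib3 (limma with an interaction). Slc1a4, the neutral amino acid carrier ASCT1, read 3.42 and 6.07 without vector and 2.03 and 8.20 with it, an estimate of -1.10 ± 0.39 (adjusted p = 0.127, limma) that was called without the WT Th2 library (-1.68; 0.0264). Without WT Th2 the members' median was -0.16, with 26 of 41 estimates below 0, against 0.08 and 15 with it. Without WT Th1 replicate 1, Slc38a2 was called lower in Th2 (-0.63; adjusted p = 0.0408, limma). In both pairs 6 members were higher in Th2 and 9 lower, where 25.2% and 34.1% of all genes were.

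**Figure D3:**
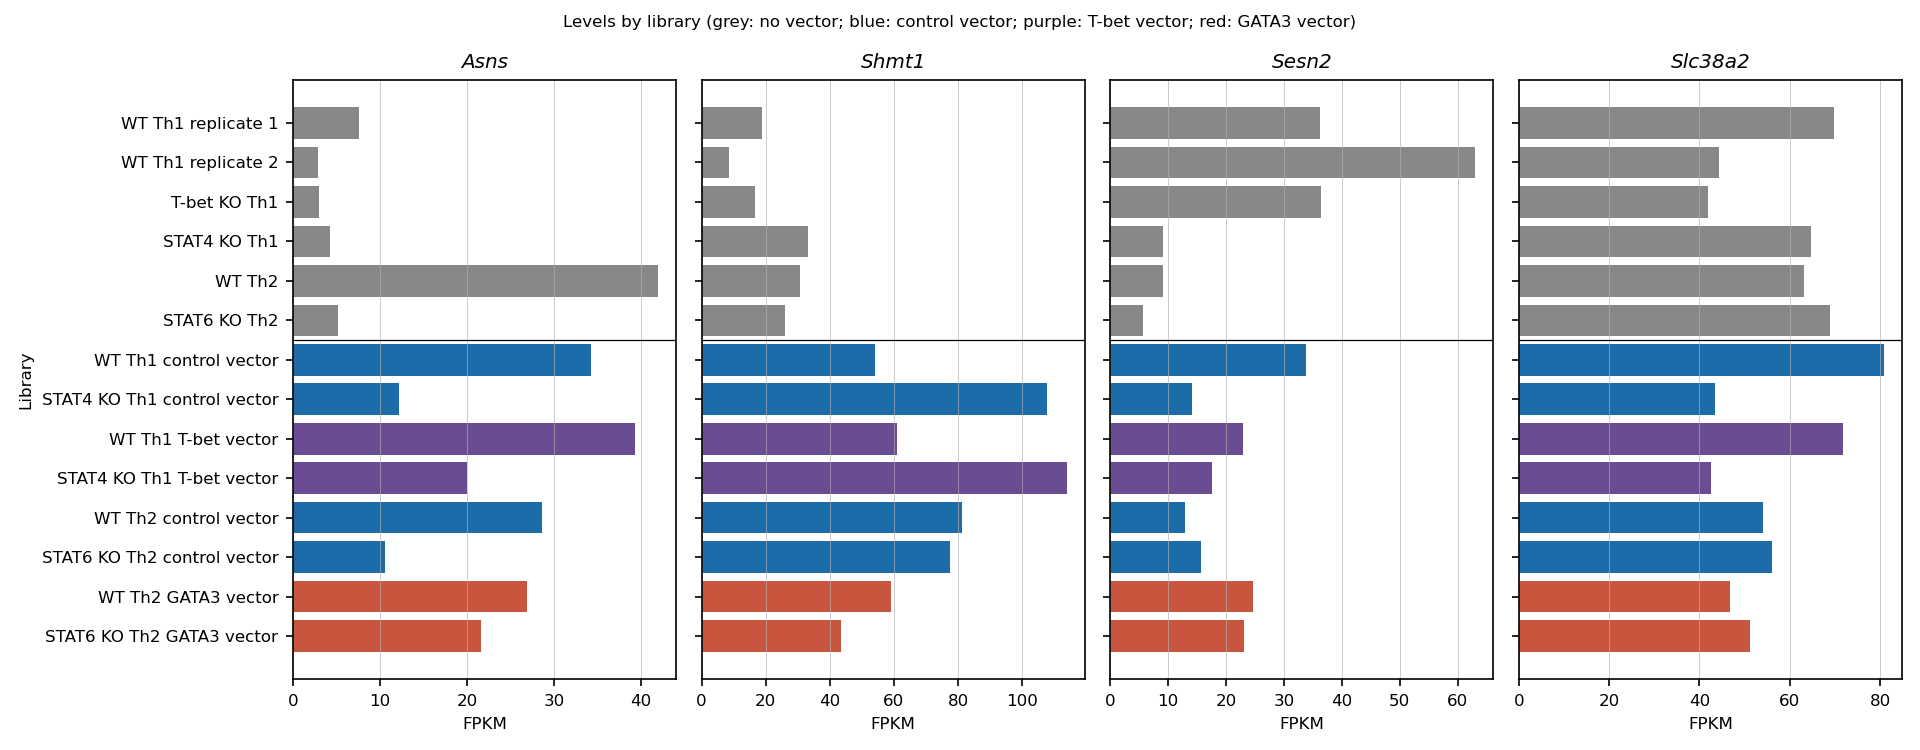
Bars give FPKM of Asns, Shmt1, Sesn2 and Slc38a2 in each of the 14 libraries, from 0, coloured by vector. Asns stands at 42.0 in no-vector WT Th2 and at 2.87 to 7.56 in the other 5 no-vector libraries, and Shmt1 is highest in the STAT4 KO vector cultures (108 and 114).

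Outside the members, 6 of 18 genes of other amino acid metabolism fell in Th2 and 0 rose, where 6.43% of all genes fell and 1.96% rose. Among them were Gls2 (-1.31), a glutaminase, Glul (-0.77), which makes glutamine, Glud1 (-0.74), Got2 (-0.69) and Odc1 (-0.63), the first enzyme of polyamine synthesis. Stc2, a stress-induced secreted protein and ATF4 target, rose by 1.59 (adjusted p = 0.0087, limma). Sesn3, another sestrin, fell by 1.59, Mxd1 by 2.18, Slc6a6 by 0.96 and Herpud1 by 0.73.

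In STAT4 KO Th1 cells 1 of 41 members was called, Shmt1, which rose, where 1.66% of all genes rose and 3% fell. Shmt1 read 33.3 FPKM in STAT4 KO against 18.7 in WT without vector, 108 against 54.1 with control vector and 114 against 60.9 with T-bet vector. All 3 pairs were higher in the knockout and close in size, with a fitted difference of 0.89 ± 0.11 (adjusted p = 0.0105, limma; 0.00932 to 0.103 over the alternatives). The call was lost without WT Th1 control vector (0.0566), STAT4 KO Th1 control vector (0.0934), WT Th1 T-bet vector (0.0536) or STAT4 KO Th1 T-bet vector (0.0538), with all 14 libraries (0.103) and with interactions (0.0735). In the test over 14 libraries WT Th1 replicate 2, at 8.43 FPKM, enters beside replicate 1. The members' median was -0.03, against 0.04 for all genes. In all 3 pairs 12 members were higher and 12 lower, where 29.1% and 22.8% of all genes were, so the members' counts sit near the background.

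The stress genes leaned low without passing the test. All 5 had estimates below 0 (median -0.53), and 4 of 5, all but Trib3, were lower in each of the 3 pairs. Sesn2 read 9.07 against 36.3 FPKM without vector, 14.1 against 33.8 with control vector and 17.6 against 22.9 with T-bet vector (-1.15 ± 0.30; adjusted p = 0.0716, limma). Asns read 4.25 against 7.56, 12.2 against 34.2 and 20.1 against 39.3 (-1.02 ± 0.49; adjusted p = 0.255, limma). Both were lower in STAT4 KO in each pair. Slc38a2, which takes up small neutral amino acids, read 64.8 against 69.8, 43.4 against 80.8 and 42.6 against 71.8 (-0.58 ± 0.15; adjusted p = 0.0703, limma). Its difference was small without vector and larger in the vector cultures, and it was called without WT Th1 replicate 1 (-0.76; 0.0244). Asns was called without WT Th2 (0.0494), a library outside the STAT4 pairs. Its estimate stayed at -1.02, and only its SE fell, from 0.49 to 0.23. Of the pathway genes outside the members, Gls2 (-1.76), Mxd1 (-1.60), a partner of MAX that opposes MYC, Sesn3 (-1.59) and Atf3 (-1.48), a stress-induced transcription factor, fell, while Slc36a4 (0.58) and Ears2 (0.54) rose.

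In STAT6 KO Th2 cells most members had estimates below 0, and none passed the test. Of 41 members 0 were called (limma over 12 libraries), where 4.14% of all genes were, and 17 (41.5%) had an unadjusted p under 0.05, as did 20.3% of all genes. Estimates were below 0 for 34 of 41 members, with a median of -0.35 against 0.04 for all genes. In all 3 matched pairs 23 members were lower and 2, Kars and Slc38a2, higher, where 17.6% and 29.2% of all genes were. Among all 41 the counts by role were 11 of 17 synthetases, 5 of 10 synthesis genes, 3 of 5 stress genes and 4 of 9 transporters lower in each pair. The members' median difference was -0.59 without vector, -0.36 with control vector and -0.09 with GATA3 vector.

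Asns had the largest estimate (-1.49 ± 0.49; adjusted p = 0.141, limma). It read 5.20 FPKM in STAT6 KO against 42.0 in WT without vector, 10.6 against 28.7 with control vector and 21.6 against 27.0 with GATA3 vector. Chac1 read 0.345 against 4.29, 1.80 against 4.39 and 3.46 against 4.83 (-1.10 ± 0.29; adjusted p = 0.0791, limma). Both were lower in each pair, least with the GATA3 vector. Slc3a2 read 28.6 against 58.8, 71.8 against 103 and 101 against 194 (-0.82 ± 0.20; adjusted p = 0.0602, limma), and Slc7a5 read 37.6 against 54.9, 89.5 against 119.7 and 122 against 332 (-0.79 ± 0.20; 0.0711). For these transporter chains the difference was smallest with control vector (-0.51 for Slc3a2 and -0.42 for Slc7a5). Shmt2 read 19.3 against 35.1, 69.2 against 104 and 66.2 against 80.7 (-0.56 ± 0.14; adjusted p = 0.0635, limma).

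Several of these estimates lay close to the threshold. Shmt2 was called after upper-quartile scaling (0.0417), after quantile normalization (0.042) and without WT Th1 replicate 1 (0.0402), Slc3a2 without WT Th1 replicate 1 (0.0188), and Chac1 without WT Th2 GATA3 vector (0.0499). WT Th1 replicate 1 is outside the STAT6 pairs, and leaving it out did not move the estimates of Shmt2 (-0.56) and Slc3a2 (-0.82). Only their SE fell, to 0.12 and 0.13. The no-vector WT Th2 library, which was the highest of the 14 for Asns, Psph, Trib3, Dars and Pycr1, enters the STAT6 contrast as well as Th2 against Th1. Without it the members' median was -0.21 and 32 of 41 estimates were below 0. Outside the members, Stc2 fell by 1.82 (adjusted p = 0.00493, limma), and it was the 1 gene called among the related lists. The median of the 17 mitochondrial synthetases was 0.05.

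**Figure D4:**
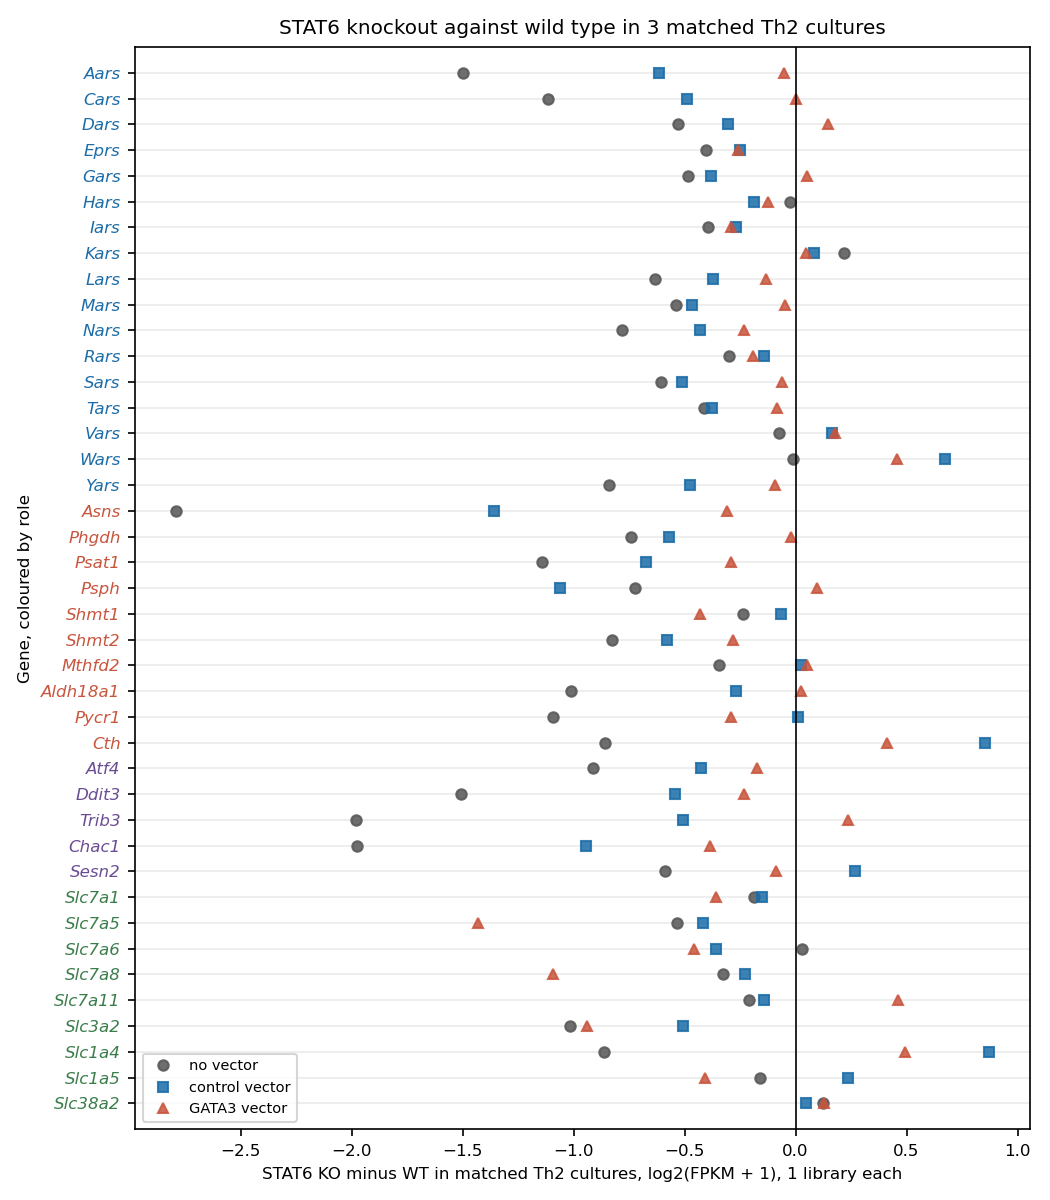
Each row is a member, coloured by role, and each mark is the STAT6 KO minus WT difference on the log2(FPKM + 1) scale in 1 pair of Th2 libraries: no vector, control vector or GATA3 vector. Most marks lie left of 0; Asns is at -2.79 without vector, and Slc7a5 is furthest left with the GATA3 vector (-1.43).

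The GATA3 vector libraries differed from all others in 1 transporter. Slc7a8 read 53.4 FPKM in WT Th2 with the GATA3 vector and 24.5 in STAT6 KO Th2 with it, against 0.316 and 0.124 with control vector and 0.00907 to 0.264 in the other 10 libraries. The GATA3 libraries stood above all others, with an estimate of 4.95 ± 0.19 (adjusted p = 2.34e-05, limma) that was called in all 19 alternatives. The ratios of FPKM were 169 and 198, on control values that Cufflinks placed between 0.217 and 0.415 in WT and between 0.0653 and 0.182 in STAT6 KO. Because Slc7a8 passed the filter only through these 2 libraries, the fit without the filter was also read: the adjusted p was 0.000126. The locus lies on mm9 at chr14:55341052-55400723. Of 41 members Slc7a8 alone rose, and Shmt1 fell, where 3.2% of all genes rose and 0.317% fell. The members' median was -0.04. It was 0.22 without WT Th2 GATA3 vector and -0.25 without STAT6 KO Th2 GATA3 vector.

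Other chains of the same carriers were higher without passing the test. LAT1 and LAT2 each pair with the heavy chain encoded by Slc3a2. Slc7a5 read 332 FPKM in WT Th2 with the GATA3 vector against 119.7 with control vector, and 122 against 89.5 in STAT6 KO (1.01 ± 0.23; adjusted p = 0.0591, limma). It was called with STAT6 KO Th2 GATA3 vector left out (1.48; 0.0193). Slc3a2 read 194 against 103 and 101 against 71.8 (0.76 ± 0.22; adjusted p = 0.133, limma). WT Th2 with the GATA3 vector held the highest value of all 14 libraries for both. A test of whether the GATA3 difference depended on STAT6 gave adjusted p = 0.725 for Slc7a8 (-0.81 ± 0.22) and 0.911 for Slc7a5 (-0.96 ± 0.29; limma with interactions), with an unadjusted p of 0.0104 and 0.0157. Cth read 8.46 against 1.95 and 11.6 against 4.33 (1.19 ± 0.44; adjusted p = 0.221, limma), and was called without WT Th2 (1.40; 0.0217). The estimate of 1.19 lies below both pair differences, because the additive fit sets its terms from all 12 libraries. A fit on these pairs alone, chosen after seeing the data, gave 1.46. Tars read 107 against 75.4 and 101 against 57.9 (0.54 ± 0.16; adjusted p = 0.13, limma).

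Shmt1 went the other way, at 59.0 FPKM with the GATA3 vector against 81.2 in WT, and 43.6 against 77.6 in STAT6 KO. The fall was -0.66 ± 0.12 (adjusted p = 0.0285, limma), but it kept its call in 7 of 19 alternatives, with adjusted p from 0.0257 to 0.548, and lost it within the matched pairs alone (0.112). Of the single libraries, leaving out WT Th1 replicate 1 or WT Th2 kept it, and leaving out any other lost it. Slc7a1, the cationic amino acid carrier, read 40.6 against 61.8 and 31.5 against 55.6 (-0.62 ± 0.18; adjusted p = 0.131, limma), and was called without WT Th1 replicate 1 (-0.70; 0.0139). All 5 stress genes were higher with the GATA3 vector in both pairs, and none was called: Sesn2 read 24.6 against 12.9 and 23.1 against 15.7, and Trib3 8.47 against 6.78 and 10.1 against 4.47. Of all genes, 37.8% were higher in both pairs and 32.7% lower. Of the members, 14 were higher in both and 12 lower. Outside them, Gls2 (1.78) and Tsc2 (0.56), a brake on mTORC1, rose.

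**Figure D5:**
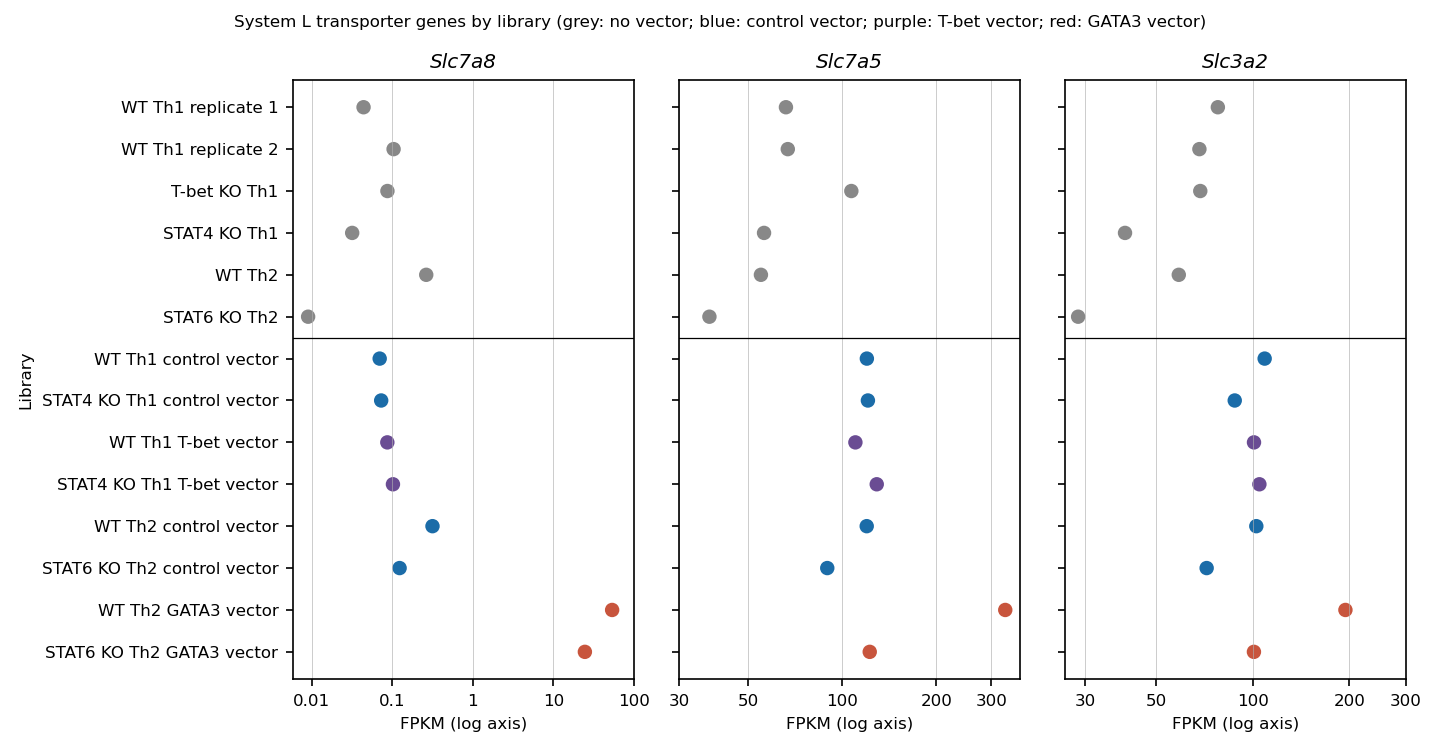
Points give FPKM on log axes of Slc7a8, Slc7a5 and Slc3a2 in the 14 libraries, coloured by vector. Slc7a8 is at 53.4 and 24.5 with the GATA3 vector and at most 0.316 in the other 12 libraries, and Slc7a5 reaches 332 in WT Th2 with that vector.

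The T-bet vector changed 0 of 41 members by the test (limma, 12 libraries), where 0.00905% of all genes were called, and 0 members had an unadjusted p under 0.05. In both pairs 13 members were higher and 9 lower, where 23.8% and 36.7% of all genes were. The largest estimates were Asns (0.81 ± 0.57), at 39.3 FPKM against 34.2 in WT and 20.1 against 12.2 in STAT4 KO, Psph (0.60 ± 0.50), at 21.9 against 20.1 and 14.9 against 11.6, and Cth (-0.48 ± 0.44), at 1.90 against 3.30 and 3.51 against 7.55. Each went 1 way in both pairs, and none was called. The differences of the WT and STAT4 KO pairs were 0.20 and 0.68 for Asns, 0.11 and 0.34 for Psph, and -0.57 and -0.92 for Cth. The estimates lie outside both pairs because the additive fit sets its vector, lineage and knockout terms from all 12 libraries. A fit on these pairs alone, chosen after seeing the data, gave 0.44, 0.23 and -0.74, with 0 members called.

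T-bet KO Th1, a single library, was compared with WT Th1 in a fit over all 14 libraries, where 0 of 40 members were called and 0.018% of all genes were. Shmt2 was left out because Cufflinks failed on it in T-bet KO and WT Th1 replicate 2. Of the members, 6 (15%) had an unadjusted p under 0.05, as did 14.5% of all genes. Wars read 37.1 FPKM in T-bet KO against 15.5 and 15.4 in the WT replicates (1.18 ± 0.23; adjusted p = 0.308, limma), above both. Ddit3, which encodes CHOP, a death-promoting factor induced by ATF4, read 53.4 against 10.8 and 40.0 (1.34 ± 0.60), and Chac1 read 8.39 against 2.22 and 4.29 (1.32 ± 0.48). For Ddit3 the WT replicates lay further from each other than T-bet KO lay from replicate 2. With replicate 2 left out, the members' median difference was 0.13, against -0.08 for all genes. With replicate 1 left out it was 0.21, against -0.10 for all genes. Both are estimates of the additive fit and not direct differences. Taken directly from replicate 2, the members' median difference of T-bet KO was 0.38, against -0.02 for all genes. From replicate 1 it was 0.07, against -0.03.

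The WT Th1 replicates themselves were far apart at some of these genes. The members' median difference, replicate 2 minus replicate 1, was -0.10, against 0.004 for all genes. Members ranged from -1.81 to 1.80 and all genes from -6.44 to 14.5. Named next are the members that differed by at least 1 on the log2(FPKM + 1) scale. Psat1 read 28.3 and 7.38 FPKM, Eprs 28.6 and 11.2, Lars 13.1 and 4.80, Gars 53.8 and 22.8, Shmt1 18.7 and 8.43, and Asns 7.56 and 2.87, each lower in replicate 2. Ddit3 read 10.8 and 40.0, and Trib3 4.05 and 9.53, each higher in it. T-bet KO lay near replicate 2 for Asns (3.04), Rars (26.8 against 27.8) and Lars (6.67).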

How the data were processed

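Only the RNA-seq samples were used; the ChIP samples are not analysed here. TruSeq libraries were sequenced as single reads on an Illumina HiSeq, per the labels' protocols. TopHat, Cufflinks, SICER and build mm9 come from the submitters' processing notes. Tool versions, annotation and strand are absent from the sources used here. The authors deposited FPKM per gene with Cufflinks intervals, per the file headers. Read counts are not among these values; from the interval widths the libraries were estimated to hold 21900000 to 38500000 fragments. The interval's half-width was 1.36% to 8.99% of the value for the 34 members at a median of 10 FPKM or more, and covers counting error only.

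limma 3.58.1 in R 4.3.3 (lmFit, eBayes with trend) was fitted to log2(FPKM + 1), a scale that understates changes of low genes. Genes had at least 1 FPKM in at least 2 of 14 libraries, no failed estimate and a value above 0 in the libraries fitted (11048 genes, or 11121 for T-bet KO). The additive terms were Th2 lineage, vector culture, the STAT4 and STAT6 knockouts and the GATA3 and T-bet vectors, with 5 residual degrees of freedom. Groups of 1 library share a spread taken from departures from additivity, and nothing says that libraries came from separate animals, so p-values may measure technical spread. Comparisons share libraries: WT controls enter several. Errors beside differences are standard errors. The code was tested on simulated data.

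The members, lists and the choice of 12 libraries were made with earlier results of these data known. Named with each library's value are members called in a comparison or among its 3 largest estimates, and genes of related lists where called (some are not reported here); others were singled out after their values were seen. Alternatives were all 14 libraries, pseudocounts of 0.1 and 5, no filter, upper-quartile scaling, quantile normalization, interactions and leaving out each library. Fits within matched pairs were added after seeing the data.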

Additional observations from a re-analysis of the deposited data

Results flagged for a closer look

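In 2 synthetase genes both Th1 pairs moved one way with vector culture and both Th2 pairs the other. For Dars the mean difference between control vector and no vector was 0.65 in the Th1 pairs and -0.27 in the Th2 pairs, a gap of 0.91 on the log2(FPKM + 1) scale. For Rars the means were 0.38 and -0.16, a gap of 0.54. A test of this dependence on lineage gave adjusted p = 0.23 for both (limma with an interaction, 12 libraries), so neither was called. Restimulation was stated for the Th1 vector cultures but not the Th2 ones, so lineage and restimulation cannot be told apart in it. A smaller difference in Th2 was not particular to these 2 genes. In the same test Eprs (-0.78), Lars (-0.83) and Mthfd2 (-0.70) also had an adjusted p of 0.23 (limma). Some members, such as Vars (0.41) and Slc1a5 (0.64), went the other way, and none of these was called. Dars read 67.0 FPKM in no-vector WT Th2 and 28.5 in WT Th1 replicate 1, the highest and lowest of its 14 values.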

How the results depend on the processing

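The call of Slc7a8 with the GATA3 vector held in all 19 alternatives (2.99 to 6.97), and 21 of the 27 members that rose with vector culture kept their call in every alternative that could be fitted. Members called with vector culture numbered 27 in the fit reported and 24 to 32 when libraries were left out singly; with all 14 libraries 3505 genes were called in place of 5801. With all 14 libraries the members called were 0 for Th2 against Th1, 0 for STAT4 KO and 1 for the GATA3 vector, and the genes 357, 81 and 117, with 0 genes for the T-bet vector and 107 for STAT6 KO. With interactions they were 0 members and 368 genes for Th2 against Th1, 0 and 79 for STAT4 KO, 245 genes for STAT6 KO and 107 for the GATA3 vector. Without the filter, 500 genes and 1 member were called for Th2 against Th1, 142 genes for STAT4 KO, 209 for STAT6 KO, 2 for the T-bet vector and 56 for T-bet KO. With a pseudocount of 0.1, 3 members were called for Th2 against Th1, 1 for STAT6 KO (Slc7a8) and 1 gene for T-bet KO; with 5, 2 genes for the T-bet vector. Upper-quartile scaling and quantile normalization each gave 1 member for Th2 against Th1, 1 for STAT6 KO and 1 gene for T-bet KO. Leaving out single libraries gave 313 to 684 genes and 0 to 2 members for Th2 against Th1, 12 to 737 and 0 to 2 for STAT4 KO, 112 to 735 and 0 to 2 for STAT6 KO, 0 to 5 and 0 for the T-bet vector, 143 to 529 and 1 to 3 for the GATA3 vector, and 1 to 5421 and 0 to 13 for T-bet KO. The cause was not tested, except that fits with fewer libraries have fewer degrees of freedom. No called estimate changed sign in these alternatives. Values near 0 FPKM limit Slc7a8, Pycr1 and Cth: half-widths for the 2 members under 1 FPKM were 27.1% and 52.6% of the value. No paired analysis was possible by replicate number because groups share only replicate number 1, so these numbers pair no cultures. Pairs of cultures matched by lineage, genotype and vector were fitted alone with the pair as a block, an alternative chosen after seeing the data that leaves 1 to 3 residual degrees of freedom. The members called were then 0 for Th2 against Th1 and 1 for the GATA3 vector, and the genes 154 and 134, with 154 genes for STAT4 KO and 114 for STAT6 KO. The same 27 members were called with vector culture, Slc7a8 with the GATA3 vector (4.94) and Shmt1 in STAT4 KO (0.89). For vector culture and STAT4 KO the design fixes the same estimates as in the fit reported. Only the error term could differ there, so these calls are not a separate check of the estimates.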
